A study of Mus musculus with 7 samples.

Results

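The adipokines examined here were 10 genes for proteins that white adipocytes secrete, namely Adipoq, Lep, Retn, Retnla, Cfd, Rbp4, Nampt, Rarres2, Apln and Sfrp5. They were chosen by name as classical adipokine genes, and all 10 were found among the 57010 gene identifiers of the deposited count table. RNA-Seq had been performed on mature adipocytes released with collagenase from perigonadal fat of male mice on normal chow, which the labels put at 20 weeks of age. The groups were 3 FFA2 fl/fl mice (floxed controls) and 4 co-housed littermate Adipoq-F2-KO mice, which carry the same floxed FFA2 alleles and an Adiponectin-Cre transgene. Cre is driven by the adiponectin promoter, that is, by regulatory sequence of an adipokine gene studied here, and only the Adipoq-F2-KO group is labelled as carrying it. The deletion of FFA2 and the presence of the transgene therefore cannot be told apart.

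Adipokines let fat tissue report its state to other organs. Leptin signals stored energy to the hypothalamus, adiponectin circulates as large multimers and favours insulin sensitivity and fatty acid oxidation, and adipsin is the protease that starts the amplification loop of the alternative complement pathway. Other adipokines act nearer the fat cell: chemerin recruits leukocytes through its receptor CMKLR1, apelin acts on vessels, and SFRP5 binds Wnt ligands. FFA2, encoded by Ffar2, is a Gi- and Gq-coupled receptor for short-chain fatty acids that is expressed in adipocytes, and whether its loss in these cells altered adipokine transcripts was the question addressed.

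Total counts ranged from 30478997 to 39992605 per library. Ffar2 fell from 34.5 ± 2.77 normalized CPM (counts relative to the TMM-scaled library size; SD, n = 3) in floxed controls to 1.69 ± 0.634 (SD, n = 4) after Adiponectin-Cre deletion, on the log2 scale a change of -4.36 (edgeR, adjusted p = 8.0e-06). Adipocyte markers (12 genes) summed to 49232 to 51840 normalized CPM in the floxed libraries and 37097 to 49798 in the Adipoq-F2-KO libraries. Of these 12 genes, 11 had a log2 fold change below 0, with a median of -0.31. Groups did not overlap for 7 of the 12, against 17.6% of all tested genes. In edgeR 0 reached an adjusted p under 0.05, and in DESeq2 4 did (6.54% of the genes it tested). Averaged per library, their log2 deviation from the floxed mean was -0.03 to 0.04 in floxed and -0.54 to -0.10 in Adipoq-F2-KO libraries. Markers of macrophages (12 genes) summed to 542 to 652 against 741 to 893, of endothelial cells (10 genes) to 1084 to 1427 against 1504 to 2394, and of fibroblast progenitors (10 genes) to 977 to 1300 against 1405 to 1609, each without overlap between genotypes. None of these markers was at 0 in all libraries. The adipocyte marker sum was thus the largest in every library, and stromal and vascular genes were measurable. Sums of unlike genes do not give the share of RNA from each cell type, which was not estimated. Adipoq-F2-KO library 4 stood apart, with the lowest adipocyte sum, the highest endothelial sum and the largest share of counts taken by the identifier ENSMUSG00000119584 (6.76%). Mitochondrial genes took 4.41% to 5.77% of the counts in the floxed libraries and 6.61% to 10.3% in the Adipoq-F2-KO libraries, again without overlap, with the highest share in library 4. Libraries with a sign of other tissue were Adipoq-F2-KO library 2, where epididymal and germ cell markers summed to 110 normalized CPM (at most 19.3 in the others), and floxed library 1, where mesothelial markers summed to 58.0 (at most 20.8 in the others). The part of these marker and mitochondrial differences in the adipokine values was not tested.

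Promoter sequences are shown for the 3 genes on which the results below turn. These are Lep and Adipoq, the hormone genes whose ratio is followed, and Retnla, the adipokine whose normalized CPM did not overlap between genotypes. They are RefSeq sequences of GRCm38.p6, running from 250 bases upstream of the transcription start to 50 bases into the transcript, printed 5′ to 3′ on the strand of the gene. Capitals mark matches, on either strand, to the motifs searched for. These were the TATA box in the spelling TATAAA, the CCAAT box, the core recognized by C/EBP factors in the spelling TTGCNNAA, the hexamer bound by nuclear receptors in the spelling AGGTCA, the E-box in the spelling CACGTG and the GC box in the spelling GGGCGG.
Lep, chr6:29059971-29060270, plus strand: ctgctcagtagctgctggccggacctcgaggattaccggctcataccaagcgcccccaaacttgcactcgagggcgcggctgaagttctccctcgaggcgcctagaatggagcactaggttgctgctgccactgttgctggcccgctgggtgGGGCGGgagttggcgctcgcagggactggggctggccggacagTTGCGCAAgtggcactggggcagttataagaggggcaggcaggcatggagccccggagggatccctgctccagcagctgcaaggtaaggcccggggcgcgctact
Adipoq, chr16:23146286-23146585, plus strand: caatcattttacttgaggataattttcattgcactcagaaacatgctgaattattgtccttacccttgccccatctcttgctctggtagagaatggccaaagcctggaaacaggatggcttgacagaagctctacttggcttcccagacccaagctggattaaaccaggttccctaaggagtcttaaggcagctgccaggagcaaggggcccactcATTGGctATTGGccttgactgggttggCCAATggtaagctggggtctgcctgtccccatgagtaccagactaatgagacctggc
Retnla, chr16:48842359-48842658, plus strand: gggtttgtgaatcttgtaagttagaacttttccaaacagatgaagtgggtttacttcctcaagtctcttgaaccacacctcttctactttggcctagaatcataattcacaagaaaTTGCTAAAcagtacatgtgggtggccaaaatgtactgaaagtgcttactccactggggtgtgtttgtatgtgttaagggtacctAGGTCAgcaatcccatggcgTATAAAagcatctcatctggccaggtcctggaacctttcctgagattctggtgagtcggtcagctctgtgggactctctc

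In the Lep promoter, the palindromic C/EBP core TTGCGCAA began 55 bases before the start site, and a GC box began 98 bases before it. In the Retnla promoter, a TATA box began at -30, AGGTCA at -50 and a C/EBP core at -134. The Adipoq promoter held 3 CCAAT boxes, at -34 and -27 on the minus strand and at -7 on the plus strand. The promoter table covered 9 of the 10 adipokines with 10 entries, since Rbp4 had 2 and Rarres2 was not matched. Among these 10 entries the C/EBP core occurred in 3 (10.8% of all 32851 promoters held it), TATAAA in 2 (13.6%), CCAAT in 3 (37.4%), AGGTCA in 2 (16.3%), GGGCGG in 5 (35.7%) and CACGTG in 0 (7.15%). A match is a description of these letters and not evidence of a bound site.

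Transcript levels of the adipokines were first ordered in the floxed controls in TPM (counts divided by the exon length of the gene and expressed relative to the library), because only a length-scaled unit allows genes to be compared with each other. The order spanned more than 3 powers of 10. Cfd, which encodes adipsin (complement factor D), reached 46651 ± 6127 TPM (SD, n = 3) and ranked 1 or 2 among all genes in each floxed library. Adipoq, encoding adiponectin, followed at 8124.5 ± 478 TPM, with ranks 14 to 17 among all genes. Retn, which encodes resistin, had 1818 ± 281 TPM, Lep had 1405.5 ± 175 TPM and Rbp4, encoding the plasma carrier of retinol, had 1032 ± 141 TPM. These 5 genes ranked between 1 and 100 of all genes in every floxed library.

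The other adipokines made up the lower part of the order. Sfrp5 reached 480 ± 209 TPM, Rarres2, which encodes chemerin, 200.5 ± 22.02 TPM, and Retnla, encoding the resistin-like molecule alpha, 132 ± 30.2 TPM. Nampt, the NAD-synthesizing enzyme also released as visfatin, had 95.9 ± 12.1 TPM, and Apln, the apelin precursor gene, 10.8 ± 3.71 TPM. No pair of neighbours in this order overlapped across the 3 floxed libraries, and the ratio of neighbouring means ran from 1.31 (Retn over Lep) to 9.75 (Nampt over Apln). Together the 10 genes made up 5.52% to 6.63% of all TPM in the floxed libraries and 3.72% to 5.41% in the Adipoq-F2-KO libraries. Most of this share came from Cfd.

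**Figure D1:**
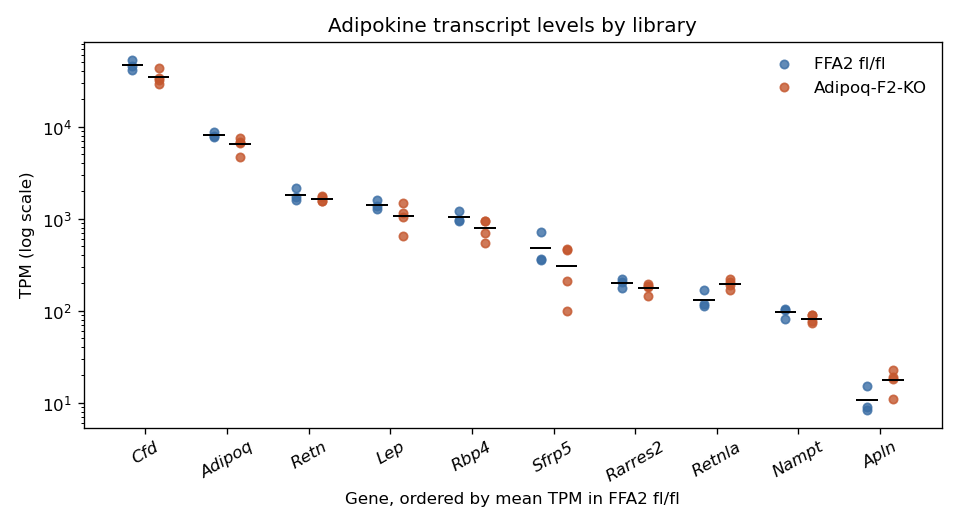
Transcript level of each adipokine in TPM (log axis), ordered by the mean of the FFA2 fl/fl libraries. Points are libraries (3 FFA2 fl/fl in blue, 4 Adipoq-F2-KO in orange) and bars are group means. Means ran from 46651 TPM for Cfd to 10.8 TPM for Apln in floxed controls. For Retnla all orange points lay above the blue ones, the nearest at 166.74 against 166.66 TPM. For Adipoq all orange points lay below the blue ones in TPM. In normalized CPM, the unit of the genotype comparison, the Adipoq groups overlapped through Adipoq-F2-KO library 3.

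In Adipoq-F2-KO adipocytes 8 of the 10 genes held the same place in the order of mean TPM. The exception was the pair Rarres2 and Retnla, since Retnla had the higher level in 3 of 4 Adipoq-F2-KO libraries and in none of the floxed libraries. In TPM, Retnla was at 117, 112 and 167 in floxed libraries 1 to 3 and at 167, 219, 204 and 188 in Adipoq-F2-KO libraries 1 to 4. Rarres2 was at 221, 177 and 203 TPM against 182, 184, 196 and 143 TPM. Among neighbours, Lep and Rbp4, Sfrp5 and Rarres2, and Rarres2 and Retnla overlapped in TPM across the 4 Adipoq-F2-KO libraries.

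The comparison between genotypes used normalized CPM and edgeR's quasi-likelihood test over 17039 genes, with a gene called at an adjusted p under 0.05. All 10 adipokines passed the filter on low counts, and 0 of 10 were called, against 1.02% of all tested genes (173 genes, 136 higher and 37 lower). At an unadjusted p under 0.05 there were 3 of 10 (Retnla, Apln and Cfd), against 17.9% of all tested genes. DESeq2 called 2 of 10 (Retnla and Apln), against 6.54% of the genes it tested, and limma voom called Retnla alone, against 1.22%. In normalized CPM there was no overlap between genotypes for 1 of 10, Retnla, against 17.6% of all tested genes. By sign, 2 adipokines had a log2 fold change above 0 and 8 below it, with a median of -0.17 beside 0.0037 over all tested genes. For 7 of 10 the 95% interval of the change lay inside 2-fold in either direction, so that larger changes than that are outside the interval for these genes.

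**Figure D2:**
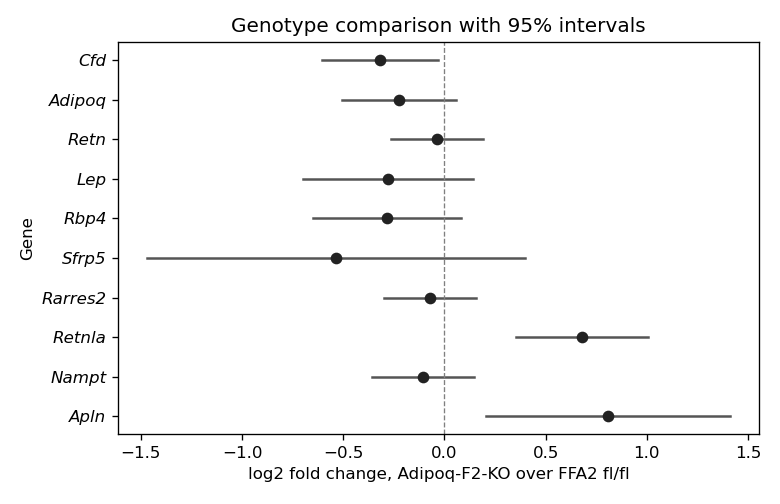
Log2 fold change of each adipokine, Adipoq-F2-KO over FFA2 fl/fl, from edgeR (points) with 95% intervals (lines). Intervals of Retnla (0.35 to 1.00) and Apln (0.21 to 1.41) lay above 0, that of Cfd (-0.61 to -0.03) below 0, and that of Sfrp5 (-1.47 to 0.40) was the widest.

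Adipoq, on chromosome 16 from 22965286 to 22976778 in the coordinates of the deposited table, was at 3762, 3611 and 3452 normalized CPM in the floxed libraries and at 3169, 3076, 3683 and 2419 in the Adipoq-F2-KO libraries. The groups overlapped through Adipoq-F2-KO library 3, and library 4 was the lowest of the 7. The means were 3608 ± 155 (SD, n = 3) and 3087 ± 519 (SD, n = 4), a log2 fold change of -0.23 (SE 0.13, 95% interval -0.51 to 0.06, edgeR adjusted p = 0.386). The coefficient of variation of Adipoq was 4.30% in floxed controls and 16.8% in Adipoq-F2-KO adipocytes. In bulk RNA a lower share of adipocytes and less Adipoq RNA per adipocyte cannot be told apart.

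Lep lies on chromosome 6 from 29060219 to 29073876. Its level was 1684, 1412 and 1446 normalized CPM in floxed controls and 1663, 1154, 1356 and 815 in Adipoq-F2-KO adipocytes. Adipoq-F2-KO library 1 lay among the floxed libraries, and library 4 was lowest. The log2 fold change was -0.28 (SE 0.19, 95% interval -0.70 to 0.14, adjusted p = 0.473). The relation of the 2 hormones was examined within each library as the ratio of Lep to Adipoq per kilobase, which does not depend on library scaling. There were 18.4, 16.1 and 17.2 Lep transcripts per 100 Adipoq transcripts in the floxed libraries against 21.6, 15.4, 15.2 and 13.9 in the Adipoq-F2-KO libraries. Both the highest and the lowest ratio were in the Adipoq-F2-KO group. The mean log2 ratio was -2.54 ± 0.097 (SD, n = 3) against -2.62 ± 0.281 (SD, n = 4), and no difference was detected (exact two-sided permutation test, p = 0.657, where 0.0286 is the smallest possible). This result depended on Adipoq-F2-KO library 1, since the ratios of the other Adipoq-F2-KO libraries all lay below the floxed ratios. Leaving that library out moved the log2 difference from -0.08 to -0.22. Omitting any other library gave values between -0.13 and -0.0055.

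Cfd, on chromosome 10 from 79726687 to 79728489, had 11830, 14223 and 15487 normalized CPM in floxed controls and 9957, 13308, 11106 and 10031 in Adipoq-F2-KO adipocytes. Only Adipoq-F2-KO library 2 lay within the floxed range. The log2 fold change was -0.32 (SE 0.13, 95% interval -0.61 to -0.03), with an unadjusted p of 0.0324 and an adjusted p of 0.236 in edgeR. The substrates and regulators of the pathway that adipsin serves were examined as a list of alternative complement genes, of which 10 were tested. Of these 0 were called by edgeR (1.02% of all tested genes). An unadjusted p under 0.05 was reached by 5 (17.9%), and 4 had no overlap between groups (17.6%). DESeq2 called 2 (6.54%), both higher, among them C3ar1, the receptor gene for C3a (named after its values were seen). The median log2 fold change of the list was 0.34. The most abundant was C3, the central component, at 630 ± 61.6 against 695 ± 139 normalized CPM (log2 fold change 0.14, adjusted p = 0.662). Another abundant member was Cfp, properdin, with 0.37 (adjusted p = 0.162).

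Rbp4, from 38105077 to 38113729, and Sfrp5, from 42186410 to 42190691, both lie on the minus strand of chromosome 19. Rbp4 was at 504, 422 and 410 normalized CPM in floxed controls and at 429, 313, 450 and 270 in Adipoq-F2-KO adipocytes. Sfrp5 was at 431, 231 and 215 against 296, 134, 307 and 69.4. In both genes the groups overlapped, floxed library 1 was highest and Adipoq-F2-KO library 4 lowest. The log2 fold changes were -0.28 (SE 0.17, adjusted p = 0.400) for Rbp4 and -0.53 (SE 0.43, adjusted p = 0.547) for Sfrp5. Sfrp5 was the most variable of the 10, with a 6.20-fold span between the highest and the lowest of the 7 libraries and coefficients of variation of 41.1% and 58.8% in the floxed and Adipoq-F2-KO groups. With this spread, the 95% interval of the Sfrp5 change reached from -1.47 to 0.40, which includes both no change and a 2-fold fall. Estimates with a library left out ran from -0.81 to -0.14. The fall shrank to -0.14 on omitting floxed library 1, and to -0.25 and -0.37 on omitting Adipoq-F2-KO libraries 4 and 2. Omitting any of the remaining libraries enlarged it, to between -0.81 and -0.68.

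Retn, Rarres2 and Nampt had log2 fold changes close to 0. Retn was at 845, 853 and 1069 normalized CPM in floxed controls and at 935, 898, 857 and 903 in Adipoq-F2-KO adipocytes, with all 4 of the latter inside the floxed range. Its log2 fold change was -0.04 (SE 0.10, 95% interval -0.26 to 0.19, adjusted p = 0.887). Retn varied less among Adipoq-F2-KO libraries (coefficient of variation 3.59%) than among floxed libraries (13.8%), and library 4, the lowest for Adipoq and Lep, was at the level of the others. Rarres2 gave -0.07 (SE 0.10, 95% interval -0.30 to 0.16, adjusted p = 0.767) and Nampt -0.11 (SE 0.11, 95% interval -0.36 to 0.14, adjusted p = 0.671). The signs of these 3 genes turn when libraries are scaled by the adipocyte marker counts, to 0.19 for Retn, 0.14 for Rarres2 and 0.13 for Nampt, a scaling that moves the median of all genes to 0.23. Rarres2 overlaps Lrrc61 on the opposite strand, which had at most 391 counts in any library against 4179 to 6916 for Rarres2.

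Retnla had the smallest p of the 10 adipokines. This gene, on chromosome 16 from 48662914 to 48664824, is known as a product of white adipose tissue and of alternatively activated macrophages. It had 825, 891 and 1079 counts in the floxed libraries against 1342, 1441, 1556 and 1234 in the Adipoq-F2-KO libraries, or 22.03, 22.5 and 31.6 against 33.7, 43.8, 43.0 and 41.9 normalized CPM. The lowest Adipoq-F2-KO library lay just above the highest floxed library. The means were 25.4 ± 5.41 (SD, n = 3) and 40.6 ± 4.68 (SD, n = 4), a 1.60-fold difference (95% interval 1.28 to 2.01) and a log2 fold change of 0.68 (SE 0.15). The p of 7.6e-04 became 0.0556 after adjustment in edgeR, which misses the threshold, and was 0.00178 in DESeq2 and 0.0488 in limma voom. Its log2 fold change lay between 0.59 and 0.91 in 15 alternative fits, and it was called in 6 of them. It was 0.59 without floxed library 1, 0.65 without Adipoq-F2-KO library 2 and 0.66 without Adipoq-F2-KO library 4 (adjusted p = 0.263, 0.109 and 0.0747). Of its relatives, Retnlb had at most 46 counts in a library and Retnlg at most 10, while Retn had 26624 to 37283. Whether reads were shared among them was not tested.

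Macrophage markers moved in the same direction as Retnla. Of the 12 genes, 10 had a log2 fold change above 0, with a median of 0.62. EdgeR called 2 (1.02% of all tested genes), Cd68 (0.72, adjusted p = 0.0416) and Lyz2 (0.69, adjusted p = 0.0383). An unadjusted p under 0.05 was reached by 9 (17.9%), and 5 had no overlap between groups (17.6%). DESeq2 called 7, all higher (6.54%). Mrc1, the mannose receptor carried by alternatively activated macrophages, had 0.66 (adjusted p = 0.0662), while Mertk and Cd163, both markers of resident macrophages, had -0.42 and -0.12 and were not called. The part of macrophage RNA in the Retnla difference was not tested.

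Apln, on the X chromosome from 47114023 to 47123730, was the least abundant adipokine. It had 8.17, 15.9 and 9.02 normalized CPM in floxed controls and 23.8, 11.4, 20.0 and 22.1 in Adipoq-F2-KO adipocytes. The groups overlapped, since Adipoq-F2-KO library 2 lay below floxed library 2, and the other 3 Adipoq-F2-KO libraries lay above all floxed libraries. The means were 11.02 ± 4.22 (SD, n = 3) and 19.3 ± 5.52 (SD, n = 4), a log2 fold change of 0.81 (SE 0.27, 95% interval 0.21 to 1.41). The adjusted p was 0.164 in edgeR and 0.0473 in DESeq2. Apelin is also produced by endothelial cells, and all 10 endothelial markers had a log2 fold change above 0 with a median of 0.49. Of these 0 were called by edgeR (1.02% of all tested genes) and 5 by DESeq2 (6.54%). An unadjusted p under 0.05 was reached by 8 (17.9%), and 4 had no overlap between groups (17.6%). The part of endothelial RNA in the Apln values was not tested.

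**Figure D3:**
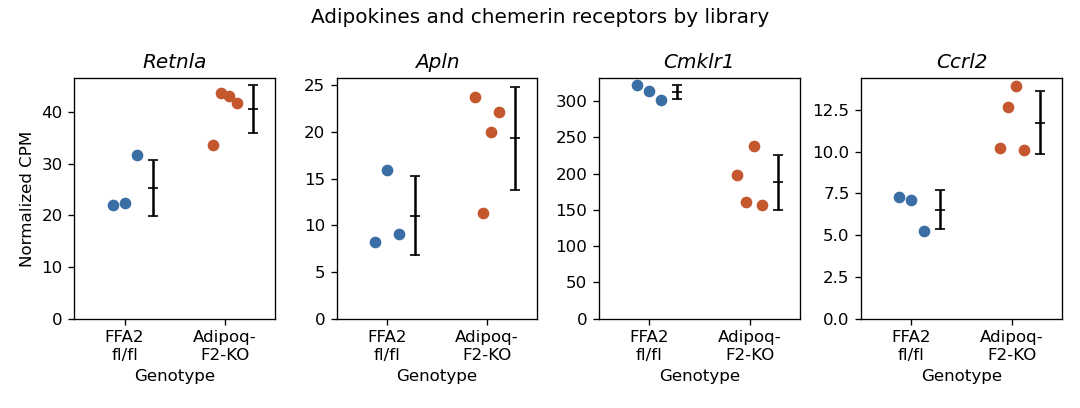
Normalized CPM of Retnla, Apln and the chemerin receptor genes Cmklr1 and Ccrl2 in each library (points), with mean and SD beside them (3 FFA2 fl/fl in blue, 4 Adipoq-F2-KO in orange). Groups did not overlap for Retnla, Cmklr1 and Ccrl2, and overlapped for Apln through a single Adipoq-F2-KO library at 11.4.

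Across libraries the adipokines did not all move together. Adipoq, Lep, Rbp4, Sfrp5 and Rarres2 shared both their highest library, floxed library 1, and their lowest, Adipoq-F2-KO library 4. For these 5 genes the pairwise Pearson r of log2 normalized CPM over the 7 libraries ran from 0.735 to 0.985, and without Adipoq-F2-KO library 4 from 0.264 to 0.971, as a description of libraries that share genotype and depth. Relative to the floxed mean, Adipoq-F2-KO library 4 was lower by 0.58 for Adipoq, 0.89 for Lep, 0.71 for Rbp4 and 2.00 for Sfrp5 on the log2 scale. The mean of the 12 adipocyte markers was lower by 0.54 in the same library. Rarres2 was lower by 0.27 in that library. Lep and Adipoq had an r of 0.844 over the 7 libraries and 0.378 without Adipoq-F2-KO library 4, so that their joint movement rested on that library. Cfd was lower by 0.46 in library 4 and by 0.47 in Adipoq-F2-KO library 1, its lowest. Retn, Nampt, Retnla and Apln were not low in library 4, and Nampt was highest of all there at 169 normalized CPM. When libraries were scaled by the adipocyte marker counts, the log2 fold changes of Adipoq, Lep, Rbp4 and Cfd were -0.03, -0.09, -0.10 and -0.10, and those of Retnla and Apln were 0.91 and 1.03. With this scaling 5 adipokines lay above 0 and 5 below, and Retnla was called (adjusted p = 0.0416).

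**Figure D4:**
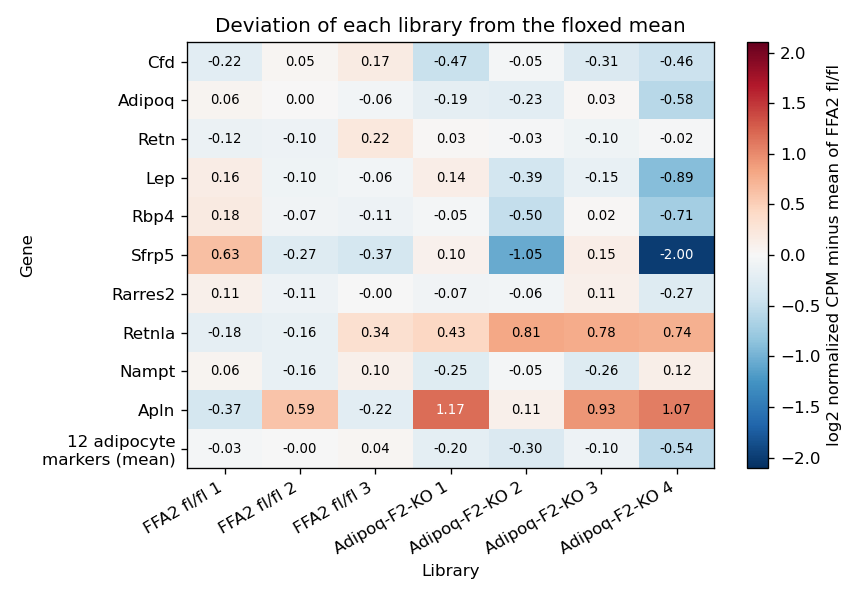
Deviation of each library from the mean of the 3 FFA2 fl/fl libraries, in log2 normalized CPM, for the 10 adipokines and for the mean of 12 adipocyte markers (blue lower, red higher). Adipoq-F2-KO library 4 was lowest for Lep (-0.89), Sfrp5 (-2.00) and the markers (-0.54), whereas Retnla was above the floxed mean in all 4 Adipoq-F2-KO libraries.

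Receptors and binding proteins for the adipokines were measured in the same libraries, and 10 of the 12 listed were tested. The median log2 fold change was 0.34, with 0 called higher and 1 lower by edgeR (1.02% of all tested genes). DESeq2 called 1 higher and 1 lower (6.54%). An unadjusted p under 0.05 was reached by 4 (17.9%), and 3 had no overlap between groups (17.6%). The gene called by edgeR was Cmklr1, the signalling receptor for chemerin. It was at 322, 314 and 302 normalized CPM in floxed controls and at 198, 160, 238 and 157 in Adipoq-F2-KO adipocytes, with a wide gap between the groups. Cmklr1 fell by 0.73 on the log2 scale (SE 0.14, adjusted p = 0.0396), while transcripts of its ligand gene Rarres2 differed by less than the spread between libraries. Cmklr1 was called in 10 of 15 alternative fits, but with a library left out only in the 2 fits without Adipoq-F2-KO library 3 or 4. Without any of the other 5 libraries the call was lost, with adjusted p up to 0.207, while the log2 fold change stayed between -0.86 and -0.65. When libraries were scaled by the adipocyte marker counts, the log2 fold change of Cmklr1 was -0.53 (edgeR adjusted p = 0.0477). The part of the adipocyte marker difference in the Cmklr1 values was not tested.

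Ccrl2, a chemerin-binding receptor that does not signal, moved the other way and was named after its values were seen. It was at 7.26, 7.11 and 5.21 normalized CPM against 10.2, 12.6, 13.9 and 10.1, with no overlap, a log2 fold change of 0.84 (SE 0.18) and an adjusted p of 0.0546. The adiponectin receptor genes Adipor1 and Adipor2 had log2 fold changes of 0.01 and -0.28 (adjusted p = 0.985 and 0.257). Lepr, the leptin receptor gene, was scarce, at 2.11 ± 0.559 and 3.32 ± 0.891 normalized CPM, and its log2 fold change of 0.65 was not called (adjusted p = 0.303). Aplnr, the apelin receptor gene, had 0.59 (adjusted p = 0.316).

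The machinery that folds and releases adiponectin was also examined. Of 12 genes tested, 0 were called by edgeR (1.02% of all tested genes) or by DESeq2 (6.54%). An unadjusted p under 0.05 was reached by 0 (17.9%), and 0 had groups without overlap (17.6%). The median log2 fold change was -0.05. Its most abundant members were Sort1, the sorting receptor sortilin (-0.14, adjusted p = 0.448), Hspa5, the chaperone BiP (0.22, adjusted p = 0.296), and Pdia3, a disulfide isomerase (-0.02, adjusted p = 0.927). Relatives of adiponectin with a C1q/TNF domain gave 0 called of 11 tested by edgeR (1.02%) and by DESeq2 (6.54%). There were 3 at an unadjusted p under 0.05 (17.9% of all tested genes), and the median was -0.0014. The most abundant per length were C1qtnf12 (-0.33, adjusted p = 0.189), C1qtnf9 (-0.0014, adjusted p = 0.998) and C1qb, a complement C1q chain (0.31, adjusted p = 0.244).

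Among 14 transcription factors known to act on adipokine genes, 1 was called by edgeR, Hif1a, the oxygen-regulated subunit of HIF-1. Over all tested genes, edgeR called 1.02% and DESeq2 6.54%. DESeq2 called Hif1a higher and 2 lower, Nr1h3, the LXR alpha gene (-0.36, adjusted p = 0.108 in edgeR and 0.0313 in DESeq2), and Klf15, a Kruppel-like factor gene (-0.55, 0.150 and 0.0499), both named after their values were seen. Hif1a was at 97.0, 118 and 127.5 normalized CPM in floxed controls and at 147, 203, 185 and 196 in Adipoq-F2-KO adipocytes. The groups did not overlap, and the log2 fold change was 0.68 (SE 0.13, adjusted p = 0.0411), called in 1 of the 7 fits with a library left out, that without Adipoq-F2-KO library 1 (adjusted p up to 0.219 in the others). The main factors of the adipocyte programme were not called: Cebpa had -0.31 (adjusted p = 0.377) and Pparg 0.27 (adjusted p = 0.178). Of the 14, an unadjusted p under 0.05 was reached by 5 (17.9% of all tested genes), and 4 had no overlap between groups (17.6%). The median of the 14 was -0.09.

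A wider list of 29 other secreted factors of adipose tissue was examined, and its difference from the 10 adipokines was not tested. Of 26 tested, edgeR called 7 higher and 0 lower (1.02% of all genes were called). DESeq2 called 12 higher and 2 lower (6.54% of the genes it tested), and the median log2 fold change was 0.35. The 2 that DESeq2 called lower, named after their values were seen, were Angptl2, an angiopoietin-like protein gene (-0.35, adjusted p = 0.0750 in edgeR and 0.00289 in DESeq2), and Nrg4, a neuregulin gene (-0.39, 0.0626 and 0.00478). The called genes included the acute-phase and inflammatory factors Lcn2 (lipocalin-2), Saa3 (serum amyloid A3), Il6, Tnf and Ccl2, and 2 factors of other kinds, Metrnl (meteorin-like) and Fst (follistatin, which binds activins). Il6 and Ccl2 were chosen by the study on these samples, and it also named TNF signalling among the raised pathways. The direction of Il6, Ccl2 and Tnf is therefore not independent evidence. Lcn2 was at 5.15, 4.08 and 5.21 normalized CPM in floxed controls and at 8.73, 10.8, 12.7 and 13.8 in Adipoq-F2-KO adipocytes (log2 fold change 1.26, SE 0.19, adjusted p = 0.0332). Metrnl was at 9.67, 12.1 and 9.96 against 18.97, 22.2, 21.8 and 17.4 (0.92, SE 0.14, adjusted p = 0.0332). Both were clearly separated between genotypes.

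Fst was at 1.98, 2.02 and 1.58 normalized CPM against 4.67, 5.89, 3.402 and 7.46 (log2 fold change 1.52, SE 0.29, adjusted p = 0.0416). Saa3 passed the threshold by a small margin (0.64, SE 0.13, adjusted p = 0.04996), and Tnf, Il6 and Ccl2 had 1.65, 1.47 and 1.14. With a library left out in turn, Lcn2 was called in 2 of 7 fits, Metrnl and Il6 in 3, Tnf and Ccl2 in 5, and Fst and Saa3 in 0. Leaving out FFA2 fl/fl library 1 or 3 ended the call of all 7 genes, with the highest adjusted p at 0.145 for Ccl2, 0.166 for Tnf and 0.244 for Saa3. Several of these genes are also expressed by macrophages, whose marker sums were higher in the same libraries as given above, and the part of those cells in the result was not tested. Among the abundant factors of the list that were not called were Hp, haptoglobin, with 0.02 (adjusted p = 0.960), and Sparc, a matrix protein, with 0.13 (adjusted p = 0.643).

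**Figure D5:**
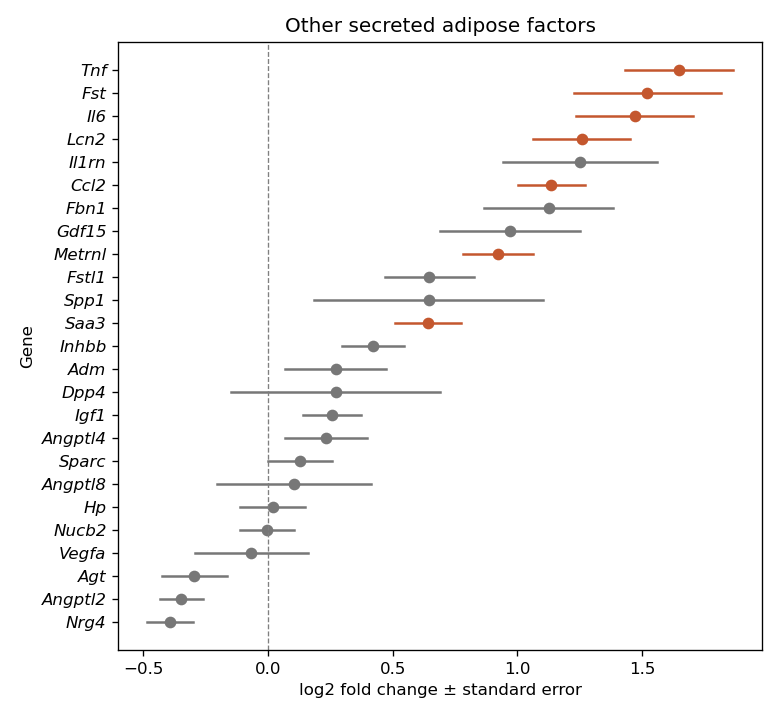
Log2 fold change with standard error for 25 of the 26 tested genes of the list of other secreted adipose factors, Adipoq-F2-KO over FFA2 fl/fl, with called genes in orange and the rest in grey. The 7 called genes, from Saa3 (0.64) to Tnf (1.65), all lay above 0.

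Genes beside Adipoq were measured because the Cre transgene carries the adiponectin promoter. Of 9 listed, Rpl39l turned out to lie about 13000 kb away, and 4 were tested. Eif4a2, a translation initiation factor gene 32.4 kb from Adipoq, was called higher. It was at 173, 175 and 174.5 normalized CPM in floxed controls and at 236, 262, 278 and 247 in Adipoq-F2-KO adipocytes, with a log2 fold change of 0.55 (SE 0.09, adjusted p = 0.0332). The floxed libraries were nearly equal and all Adipoq-F2-KO libraries were above them. Eif4a2 was called in 2 of the 7 fits with a library left out, those without Adipoq-F2-KO library 1 or 4, with adjusted p up to 0.196, and its end overlaps that of Rfc4, so their reads may be shared.

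Rfc4, a DNA replication factor gene 18.8 kb from Adipoq, had 0.59 (adjusted p = 0.416), and St6gal1, a sialyltransferase gene 66.7 kb away, had -0.02. Kng2, a kininogen gene 117 kb away with at most 52 counts in a library, had 1.84 (adjusted p = 0.168). Kng1, Fetub and Ahsg had at most 18 counts in any library and Hrg had 0. Whether the transgene contributes reads to any of these genes was not tested.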

How the data were processed

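RNA-Seq of mature adipocytes was analysed (3 floxed controls, 4 Adipoq-F2-KO mice). The authors used Trimmomatic for trimming, STAR for alignment and featureCounts for counting; versions and counting options are not given in the sources used here. The deposited values are raw counts per gene. The submitters' processing notes name GRCm38 and mm10, but of 52081 identifiers shared with a GRCm38 annotation only 1498 have its start and end, so coordinates are those of the deposited table. Between 85.5% and 88.8% of counts up to 49 were even in each library, as when both mates of a pair are counted, and counting error is then larger than the counts imply. Symbols were matched for 52029 of 57010 identifiers. No pair of libraries of a genotype agreed within sampling noise. The labels name separate mice only through sample numbers, so p-values measure the spread between these samples.

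Counts were filtered with filterByExpr, scaled by TMM (factors 0.968 to 1.02) and tested with the two-sided quasi-likelihood test of edgeR 4.0.16 (R 4.3.3) in a model of genotype alone, with Benjamini-Hochberg adjustment over 17039 genes. Common BCV was 0.258. DESeq2 1.42.0 and limma 3.58.1 (voom) were alternatives, as were other scalings and filters, a replicate block and leaving out each library. The test was tested on simulated data. TPM were computed from counts and the deposited exon lengths. Genes named are the 10 adipokines, Ffar2, markers that moved with a result, called genes or otherwise up to 3 abundant genes of each list, the 3 genes most like Lep and Adipoq, and genes beside Adipoq; a few genes of the lists are not reported here. Members and lists were chosen with earlier results of these data known.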

Additional observations from a re-analysis of the deposited data

How the results depend on the processing

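The number of adipokines called was 0 in edgeR with TMM, 1 when libraries were scaled by adipocyte marker counts, 2 with a filter of at least 1 count, 2 in DESeq2, 1 in limma voom and 0 to 1 with a library left out. Retnla was among them each time, and the single call with a library left out came without Adipoq-F2-KO library 1 (adjusted p = 0.0465). Over all genes, 173 calls became 1403 with the filter of at least 1 count, 984 in DESeq2 and 1 to 178 with a library left out (1, 41 and 5 without FFA2 fl/fl libraries 1, 2 and 3, and 11 and 20 without Adipoq-F2-KO libraries 2 and 3). Scaling by adipocyte marker counts gave 218 higher and 10 lower. The 10 calls over the pathway lists became 24 in DESeq2 and 0 to 9 with a library left out (0, 4 and 0 without FFA2 fl/fl libraries 1, 2 and 3, and 2 and 3 without Adipoq-F2-KO libraries 2 and 3). The log2 fold change turned to 0.19 for Retn, 0.14 for Rarres2 and 0.13 for Nampt under adipocyte scaling, and with a library left out Retn ran from -0.098 to 0.094, the latter without FFA2 fl/fl library 3; the cause was not tested. Ordered by normalized CPM, 6 of 10 adipokines kept their place, since length is then not divided out. Libraries that share a replicate number did not deviate together (r = 0.074, -0.026 and -0.040). Those of unlike number ran from -0.13 to 0.12, and with so few libraries the check cannot tell whether the numbers pair mice. With the replicate block 224 genes and 1 adipokine (Retnla, adjusted p = 0.0431 in edgeR) were called. The log2 ratio of Lep to Adipoq then differed by -0.0055 between libraries of the same number. Of 150 log2 fold changes of the adipokines under alternatives, 138 kept their direction and side of the threshold.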

Other observations

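Lists tied to the remaining adipokines were also examined. Of 13 genes of NAD metabolism around Nampt, edgeR (1.02% of all tested genes) and DESeq2 (6.54%) called 0. An unadjusted p under 0.05 was reached by 3 (17.9% of all tested genes), with a median log2 fold change of -0.01. The most abundant per length were Nnmt, which methylates nicotinamide (-0.01, adjusted p = 0.988), Nadk, which phosphorylates NAD (-0.20, adjusted p = 0.235), and Parp1, which consumes NAD (-0.31, adjusted p = 0.149). Of 10 tested Wnt ligands, frizzled and co-receptor genes, on whose ligands SFRP5 acts, 0 were called by edgeR (1.02%) or DESeq2 (6.54%). An unadjusted p under 0.05 was reached by 0 (17.9%), and the median was -0.01. Their most abundant members were Fzd4 (0.09), Lrp5 (-0.09) and Lrp6 (-0.14). Of the 3 tested relatives of resistin and SFRP5, namely Sfrp1, Sfrp2 and Sfrp4, 0 were called by edgeR (1.02%) or DESeq2 (6.54%). An unadjusted p under 0.05 was reached by 0 (17.9%).

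Of 9 tested genes of retinoid handling, the context of Rbp4, edgeR called 0 (1.02% of all tested genes) and DESeq2 called 2 (6.54%). An unadjusted p under 0.05 was reached by 5 (17.9%), and 4 had no overlap between groups (17.6%). The median was 0.35. The most abundant per length, Rbp7, Dhrs3 and Aldh1a1, which bind, reduce and oxidize retinoids, had -0.09, -0.33 and -0.27. Rara, the retinoic acid receptor alpha gene, was named after its values were seen and had 0.60 with no overlap (19.1 ± 2.18 against 29.0 ± 3.21 normalized CPM, SD, n = 3 and 4, edgeR adjusted p = 0.0519).

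Among 8555 genes with a mean of at least 10 normalized CPM, the genes whose log2 levels ran most like Lep over the 7 libraries were Atf6b, Nkiras2 and Prr5, with Pearson r of 0.996, 0.993 and 0.993, and 0.989, 0.975 and 0.978 without Adipoq-F2-KO library 4. The genes most like Adipoq were Ccm2, Emc2 and the pseudogene Hspd1-ps3, with 0.997, 0.993 and 0.992, and 0.997, 0.988 and 0.992 without that library. None of these 6 genes was called (adjusted p from 0.425 to 0.613 in edgeR). These are the extremes of many genes over few libraries and are given as a description.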
